A study of Homo sapiens with 13 samples.

Results

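The comparison described here sets PC3 cells given docetaxel and adapalene together (Combo, 3 libraries) against PC3 cells given vehicle (Vehicle, 3 libraries). These 6 of the 13 libraries of the series were chosen by their treatment labels, and 15734 of the 67882 gene identifiers in the count table passed a filter on low counts and were tested. PC3 is an epithelial prostate cancer line, and the cells of all groups carried a short hairpin RNA against TIMP1, so cells without that hairpin were not analysed here. The drugs were applied for 48 h. A further 4 libraries of cells given docetaxel at 1 nM (Docetaxel) and 3 of cells given adapalene at 5 µM (Adapalene) were used to show where Combo differed from either drug alone. The labels give no separate doses for Combo, and do not say whether the hairpin line is 1 clone or what the vehicle was. The series calls its replicates technical, so each p-value measures only the spread between such replicates. In bulk RNA, fewer cells of a type and less RNA per cell cannot be told apart.

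Docetaxel is a taxane: it binds beta-tubulin, stabilises microtubules and holds dividing cells in mitosis through the spindle checkpoint. Adapalene is a synthetic retinoid that binds retinoic acid receptors, which act as transcription factors. Most genes for mitosis are transcribed late in the cell cycle and are repressed when cells leave the cycle, and their promoters often carry a CCAAT box and a cell cycle homology region close to the start site.

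Library totals ran from 13065770 to 16235041 counts in Combo and Vehicle, with 21836 to 22938 genes detected in the Vehicle libraries and 23303 to 24515 in the Combo libraries. Mitochondrially encoded genes took 2.61% of counts in Vehicle replicate 3 and 2.56% in Combo replicate 3, and 0.980 to 1.30% in the other 4. Epithelial keratins and adhesion genes marked the cells as labelled (KRT8 from 8535 to 19569 counts per library, EPCAM from 2097 to 4266). The prostate secretory gene KLK3 had at most 1 count. Markers of other cell types were low. The 12 leukocyte markers, of which 1 had enough counts to be tested, summed to 1.58 to 2.36 CPM in Vehicle and 3.16 to 3.83 CPM in Combo, with NKG7 at 0 and CD3E at most 1 count. Of 8 endothelial markers 4 were tested, and the sum was 13.3 to 21.6 CPM and then 19.3 to 29.4 CPM, with overlap between the groups. Of 10 fibroblast markers 4 were tested, and the sum was 24.98 to 33.5 CPM and then 38.4 to 53.2 CPM. Most of that sum was COL1A1 (232 to 627 counts per library), with COL3A1 next at 14 to 41. Of 8 neuroendocrine markers 2 were tested, and the sum was 69.7 to 88.0 CPM and then 104.6 to 122.1 CPM, with CHGA at 0. Most of that sum was ENO2 (854 to 1637 counts per library), an enzyme also listed under glycolysis below, while SYP had 23 to 58. The part of such RNA in the results was not tested. On the first principal component, which held 36.1% of the variance, Combo replicate 2 stood apart from its group, at −24.0 against 2.14 and 11.7. The Vehicle libraries were there at −31.4 to −20.8, and Adapalene replicates 1 and 2 at −21.2 and −36.7. On the second component (24% of the variance) Combo replicate 2 stood with its group, at −18.5 beside −15.4 and −36.2. The Vehicle libraries lay at 22.2 to 36.3 on it. Genes that most cells use were also near 0 in every library of the table (LDHA at most 1 count, NDUFS1, FBL and HSF1 at 0). In the major histocompatibility region of chromosome 6, 139 of 181 protein-coding genes held 0 counts throughout. A count near 0 in this table therefore does not show that a gene is silent.

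Levels are given as CPM (counts scaled to library size, with TMM factors between libraries), in the order of replicates 1 to 3. A gene is called, and is said to have risen or fallen, when the p-value of edgeR's quasi-likelihood test, after Benjamini-Hochberg adjustment across the tested genes, is under 0.05. By that rule 2117 genes rose in Combo against Vehicle (13.5% of those tested) and 1941 fell (12.3%). Every count of list members against Vehicle given below stands beside these shares. At 2-fold or more the split was uneven: 766 genes rose (4.87%) and 47 fell (0.299%). The median log2 fold change of all tested genes was 0.02. Every Combo library lay above every Vehicle library in 3241 of the 15734 tested genes, and below every one in 2946. Genes named for large changes or small p-values would often separate in this way, so statements of no overlap below are description only. Of the calls 52.2% were rises, and with libraries scaled by their totals alone 65.8% were (2671 rises and 1391 falls). Without Combo replicate 3 there were 1319 rises and 1167 falls, 466 of the rises at 2-fold or more. Falls numbered 1246 without Vehicle replicate 1. Without Combo replicate 2, falls of 2-fold or more numbered 96.

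The direction of the calls went with level. Among protein-coding genes averaging under 1 CPM over the 13 libraries, 120 of 652 rose and 8 fell, with a median log2 of 0.57. Among those over 100 CPM, 212 of 2501 rose and 624 fell, with a median of −0.10. Long intergenic noncoding RNAs leaned the same way, with 140 of 794 rising and 19 falling and a median of 0.34, and antisense transcripts had 124 of 939 rising and 23 falling. Between 5 and 20 CPM, 19 of 119 intergenic RNAs rose and 7 fell, beside 353 rises and 228 falls among 2420 protein-coding genes. The filter on low counts worked by group, so a low-level gene could pass through the group where it was high. The level average also included the Combo libraries, and these had more genes detected than the Vehicle libraries (above). The low-level counts are therefore a description, and the part of the filter and of detection in them was not tested.

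**Figure D1:**
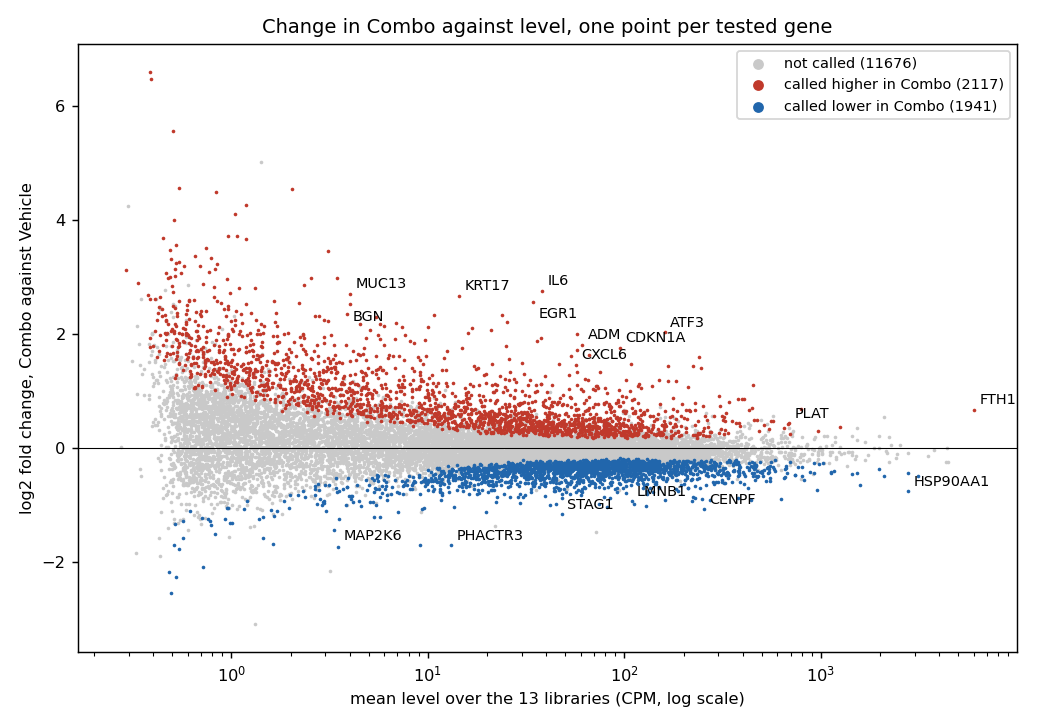
Mean level of each tested gene over the 13 libraries (CPM, log axis) against its log2 fold change in Combo against Vehicle, with 2117 called rises in red, 1941 called falls in blue and the other genes in grey. Most points beyond a log2 of 1 lie above the zero line and at low levels, while at high levels more of the called genes lie below it.

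The 12 largest rises were drawn from genes averaging at least 5 CPM in the higher group whose Combo and Vehicle libraries did not overlap. They include genes that were near 1 CPM in Vehicle. IL6, an inflammatory cytokine (chromosome 7, 22725884 to 22732002), stood at 6.67, 5.47 and 6.01 CPM in Vehicle and at 41.5, 16.2 and 66.0 CPM in Combo. Combo replicate 2 was the lowest of its group (log2 2.77, SE 0.44, edgeR adjusted p = 0.000508). MUC13, a membrane mucin of epithelia (chromosome 3, 124905442 to 124953819), went from 0.725, 0.923 and 0.991 CPM to 6.54, 5.00 and 5.97 CPM, 6.56-fold by the fit (log2 2.71, SE 0.20, edgeR adjusted p = 3.2e-06). KRT17, a keratin of basal and stressed epithelium, rose from 3.66 ± 0.648 CPM to 23.5 ± 8.90 CPM (SD, n = 3 each), and the hair keratin KRT34 by 2.21 on the log2 scale. The keratin genes have close relatives, so reads shared between copies make their single values uncertain. The others were EGR1 (2.58), the proteoglycan BGN (2.36), the chemokine CXCL3 (2.33), the synaptic early gene ARC (2.31), the signalling adaptor TRAF1 (2.23), the ubiquitin ligase HECW2 (2.19), the cytokine IL1A (2.15) and the small GTPase RRAD (2.14).

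The largest falls, drawn from genes without overlap by the same rule, were smaller. PHACTR3, a regulator of protein phosphatase 1 and actin, stood at 18.8, 24.6 and 33.0 CPM in Vehicle and at 6.29, 10.9 and 6.42 CPM in Combo (log2 −1.70, SE 0.30, edgeR adjusted p = 0.0011). MAP2K6, a kinase that activates p38, stood at 17.3, 18.2 and 20.6 CPM and then at 4.92, 9.14 and 3.28 CPM (log2 −1.69, SE 0.37, edgeR adjusted p = 0.00415). In both genes Combo replicate 2 was the highest of its group. STAG1, a cohesin subunit (chromosome 3, 136336233 to 136752403), went from 73.8, 61.1 and 60.7 CPM to 32.7, 27.1 and 27.7 CPM (log2 −1.16, SE 0.12, edgeR adjusted p = 2.82e-05). PSRC1, a spindle protein, fell by 1.12, COQ3, an enzyme of coenzyme Q synthesis, by 1.06, and MBNL3, a splicing regulator, by 1.03. MANSC4 fell by 1.42, the noncoding RNA LINC01963 by 1.19 and the antisense RNA SOX21-AS1, uncertain where counting ignores strand, by 1.20. FAM72B, 1 of several near-identical copies, fell by 1.04. The collagen gene COL11A1 fell by 1.11 (edgeR adjusted p = 0.0125), but missed the threshold when Vehicle replicate 3 or Combo replicate 1 was left out (adjusted p = 0.0555 and 0.0539).

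Some genes with the smallest p-values moved less but varied little between libraries. CXCL6, a neutrophil attractant, stood at 27.2, 28.5 and 31.2 CPM in Vehicle and at 80.0, 79.4 and 82.4 CPM in Combo (log2 1.47, SE 0.11, edgeR adjusted p = 3.2e-06). RGS4, which shortens G protein signalling, rose from 25.2 ± 1.92 CPM to 78.3 ± 8.38 CPM, and the noncoding RNA LINC01133 from 6.07 ± 0.700 CPM to 26.4 ± 4.50 CPM. SERPINE2, an inhibitor of serine proteases, rose by 0.75 with an SE of 0.07. HNRNPDL, an RNA-binding protein, fell from 282, 252 and 270 CPM to 166, 166 and 164 CPM (log2 −0.70). The glycosyltransferase GALNT7 fell by 0.77, the chromatin reader ZMYND11 by 0.71 and the actin and microtubule linker GAS2L3 by 0.96. No library of 1 group crossed into the other in any of these 8 genes, which were picked for their small p-values.

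Mitotic genes fell together. Of 18 tested kinases and phosphatases of mitotic entry 11 fell and 0 rose (median log2 −0.39), and of 25 kinetochore and centromere genes 12 fell and 0 rose (median −0.29). Of 29 spindle checkpoint, cohesion and chromosome passenger genes 26 fell and 0 rose (median −0.51), and of 25 mitotic kinesins, spindle and cytokinesis genes 23 fell and 0 rose (median −0.59). Over all tested genes 12.3% fell and the median was 0.02. KIF15, KIFC1, NUSAP1 and SKA1 had too few counts to be tested.

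A part of the promoters of these genes holds the letters through which transcription in the cell cycle is often described. The 250 bases before the RefSeq start (GRCh38.p14) were available for 81 of the 96 tested mitotic genes. Either strand held TTTGAA or TTTAAA, the letters of the cell cycle homology region, in 37 of the 81 (45.7%), against 14.5% of the 11204 tested genes with a promoter and 22.1% of all 27195 promoters of the table. CCAAT was found on either strand in 54 of the 81 (66.7%), against 35.2% and 33.0%. Lists with 0 falls held CCAAT too, in 17 of 19 replication histone promoters (89.5%) and 15 of 18 of cholesterol synthesis (83.3%). The homology letters were in 6 of the 19 (31.6%) and 1 of the 18 (5.56%). A match of letters is a description and not a binding site. Among falling members with homology letters in the last 120 bases before the start, 28 in number, 4 had no annotated exon in that window, and these 4 are printed, 5′ to 3′ in the direction of transcription with the matched letters of either strand in capitals.
CENPF, chr1:214603075-214603194, plus strand: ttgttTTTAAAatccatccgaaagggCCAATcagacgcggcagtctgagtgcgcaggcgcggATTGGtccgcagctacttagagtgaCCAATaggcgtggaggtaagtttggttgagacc
KIF11, chr10:92593010-92593129, plus strand: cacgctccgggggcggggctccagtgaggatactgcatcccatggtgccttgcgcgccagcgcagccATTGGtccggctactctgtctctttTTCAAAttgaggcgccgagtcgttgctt
ESPL1, chr12:53268179-53268298, plus strand: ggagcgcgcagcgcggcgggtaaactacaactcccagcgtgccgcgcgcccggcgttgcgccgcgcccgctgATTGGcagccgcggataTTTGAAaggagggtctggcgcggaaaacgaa
CEP55, chr10:93496492-93496611, plus strand: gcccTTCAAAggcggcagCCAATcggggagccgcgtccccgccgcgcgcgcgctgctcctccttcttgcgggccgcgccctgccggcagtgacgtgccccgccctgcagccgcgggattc

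CENPF, a kinetochore protein of late cell cycle, had 414, 333 and 361 CPM in Vehicle and 196, 168 and 165 CPM in Combo, a fall by 1.07 on the log2 scale (SE 0.10, edgeR adjusted p = 1.24e-05). The groups stood far apart, and no Combo library reached 200 CPM. KIF11, ESPL1 and CEP55 are named for their promoters, after their values were seen. KIF11, the motor that pushes spindle poles apart, went from 126, 112 and 111 CPM to 79.5, 72.1 and 59.98 CPM (log2 −0.72), and ESPL1, the separase that cuts cohesin, fell by 0.47. CEP55, which works in the final cut between daughter cells, fell by 0.33 (edgeR adjusted p = 0.0277) and missed the threshold in 5 of 22 alternatives, with an adjusted p of up to 0.13 without Combo replicate 3. The printed windows thus belong to genes that fell by unequal amounts.

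The mitotic kinase PLK1 fell from 204, 181 and 147 CPM to 103, 87.9 and 72.5 CPM (log2 −1.01, edgeR adjusted p = 8.69e-05). AURKA, a kinase of the spindle poles, fell by 0.91, and the mitotic cyclins CCNB1 and CCNB2 by 0.89 and 0.71. At the kinetochore NDC80, which binds microtubule ends, went from 145, 132 and 126 CPM to 84.0, 79.4 and 70.1 CPM, the motor CENPE fell by 0.87 and SKA2 by 0.64. Among checkpoint and cohesion genes the checkpoint kinase BUB1 fell by 0.80, the condensin subunit NCAPD2 by 0.87 and the cohesin regulator PDS5B by 0.76. Of the motors and spindle proteins KIF14 went from 114 ± 6.94 CPM to 55.7 ± 5.53 CPM, and KIF20A, HMMR and DLGAP5 fell by 0.98, 0.97 and 0.93. Values of Combo and Vehicle did not overlap in any of the genes of this paragraph. Every Combo value was the lower in 2946 of all 15734 tested genes. MKI67, the proliferation marker, followed them, from 684, 563 and 532 CPM to 368, 295 and 282 CPM (log2 −0.91, edgeR adjusted p = 0.000122).

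CDKN1A, the inhibitor of cyclin-dependent kinases known as p21 (chromosome 6, 36676460 to 36687339), moved the other way. It stood at 36.9, 39.8 and 37.6 CPM in Vehicle and at 146, 99.2 and 144 CPM in Combo, 3.41-fold higher by the fit (log2 1.77, SE 0.16, edgeR adjusted p = 8.79e-06). Of 7 tested inhibitors of this kind 2 rose and 2 fell. The other riser, CDKN2B (log2 0.61), was not called when any of Vehicle replicates 1 and 2 and Combo replicates 2 and 3 was left out, which left 1. CDKN2C fell by 0.61, and CDKN3, a phosphatase that peaks with mitosis, by 0.71. Of 20 genes for G1 and S phase cyclins, their kinases and E2F factors 1 rose, CCND3 (log2 0.42), and 8 fell, with E2F5 (−0.66), SKP2 (−0.62) and TFDP1 (−0.57) among them. That count of falls was 5 without Vehicle replicate 1 and 5 without Combo replicate 3. With the replicate number as a block, in a fit to the 6 Combo and Vehicle libraries alone, 3 rose. This fit is called the replicate block below. Without Combo replicate 2, 2 rose.

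Genes for copying DNA fell in part. Of 40 tested replication genes 15 fell and 0 rose (median −0.20). With the replicate block 20 fell and 3 rose, and with libraries scaled by their totals 2 rose. GINS2, part of the replicative helicase, went from 41.8, 43.3 and 36.8 CPM to 22.6, 23.5 and 23.7 CPM. The helicase subunits MCM6 and MCM3 fell by 0.76 and 0.70. Of 22 genes of homologous recombination and the Fanconi pathway 7 fell and 0 rose (median −0.16), a count that rests on single libraries. It dropped to 1 when Combo replicate 3 was left out, to 2 for Vehicle replicate 1, to 3 for Vehicle replicate 2 and to 4 for Combo replicate 2, and was 1 with libraries scaled by their totals. The nuclear lamina, pore and high mobility group list had 18 of 24 falling and 0 rising (median −0.39). LMNB1, a lamin of the inner nuclear envelope, went from 176, 170 and 141 CPM to 97.3, 95.5 and 63.5 CPM, and the chromatin proteins HMGB1 and HMGN2 fell by 0.69 and 0.66. NUP37, a nuclear pore subunit, fell by 0.66. HMGB1 and HMGN2, like HSPE1 and FTH1 below, have processed copies elsewhere in the genome that could share their reads, so their single values are uncertain.

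**Figure D2:**
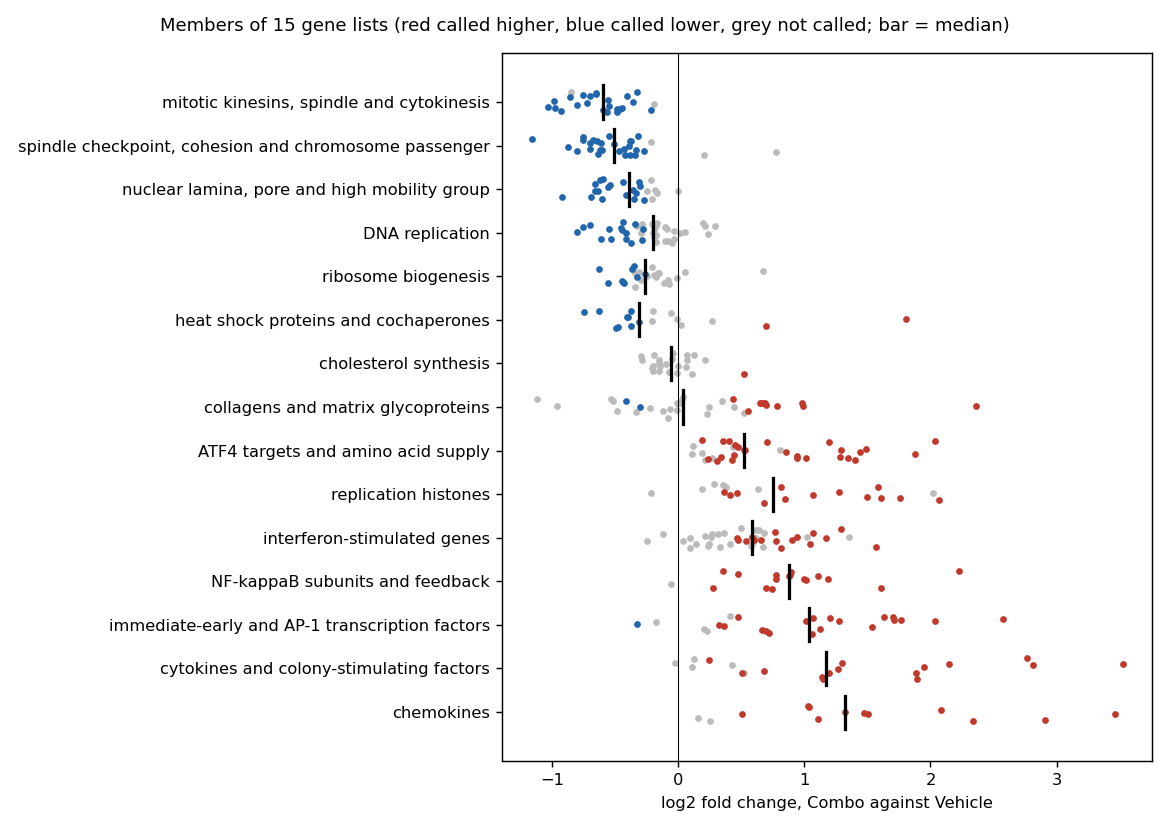
Log2 fold change in Combo against Vehicle of every tested member of 15 gene lists, 1 point per gene (red risen, blue fallen, grey not called), with the list's median as a bar. Points of the mitotic lists lie left of zero with medians of −0.59 and −0.51, and points of the chemokine and cytokine lists lie right of it with medians of 1.32 and 1.17.

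Genes of ribosome assembly and of protein folding were lower in part. Of 25 ribosome biogenesis genes 9 fell and 0 rose (median −0.26), among them UTP20 (104, 89.9 and 81.0 CPM to 72.8, 49.4 and 55.4 CPM) and HEATR1 (log2 −0.56), both scaffolds of the small subunit. That count was 4 without any of Vehicle replicates 1 and 2 and Combo replicates 2 and 3. Of 17 heat shock proteins and cochaperones 9 fell and 2 rose (median −0.31), with 3 falls without Vehicle replicate 1 and 4 without Combo replicate 3. The cytosolic chaperone HSP90AA1 was among the most abundant genes to fall, from 4107, 3622 and 3204 CPM to 2459, 2094 and 1970 CPM (log2 −0.75, edgeR adjusted p = 0.000301). HSPE1, a mitochondrial chaperonin, fell by 0.63, while the cochaperone DNAJB4 rose by 0.70. CRYAB, a small heat shock protein, rose from at most 8 counts in a Vehicle library to 12, 15 and 18 counts in Combo.

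Genes of the integrated stress response rose. Cells short of amino acids or with misfolded protein in the endoplasmic reticulum make more of the transcription factor ATF4, whose targets import and make amino acids. Of 33 tested ATF4 targets and amino acid supply genes 26 rose and 0 fell (median 0.52, beside 13.5% of all genes rising). CTH, which makes cysteine, stood at 8.48, 10.4 and 11.7 CPM in Vehicle and at 28.96, 26.0 and 31.0 CPM in Combo (log2 1.49, SE 0.12, edgeR adjusted p = 6.28e-06). CHAC1, which degrades glutathione, went from 12.97, 15.3 and 12.4 CPM to 44.4, 36.6 and 68.8 CPM (log2 1.88). ATF3, a stress-induced transcription factor, rose from 43.4, 41.1 and 42.4 CPM to 184, 104 and 234 CPM (log2 2.04), and the secreted stress protein GDF15 from 74.3, 99.5 and 112 CPM to 177, 304 and 296 CPM (log2 1.44). In these 4 genes every Combo library lay above every Vehicle library, as in 3241 of all 15734 tested genes. The letters TGATGNAA of the ATF4 composite element were found on either strand before 4 of the 27 members with a promoter (14.8%), against 1.59% of tested genes and 3.18% of all promoters.

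Chaperones and degradation genes of the endoplasmic reticulum rose in part. Of 18 tested, 5 rose and 1 fell (median −0.07), and 0 fell without Vehicle replicate 1, Vehicle replicate 2 or Combo replicate 3, 2 without Vehicle replicate 3 and 3 with the replicate block. The risen members were the cochaperone DNAJB9 (log2 0.87), the stress sensor ERN1 (0.77), the degradation factors HERPUD1 (0.54) and SYVN1 (0.41), and CRELD2 (0.27). The call of CRELD2, named after its values were seen, was lost in 7 of 22 alternatives. Of 28 NRF2 targets and antioxidant enzymes 7 rose and 2 fell. The falls were 0 when Vehicle replicate 1, Vehicle replicate 2 or Combo replicate 3 was left out and with scaling by totals, and 1 without Vehicle replicate 3 or Combo replicate 1. HMOX1, which breaks down heme, rose from 13.98, 15.4 and 10.3 CPM to 30.9, 21.9 and 32.6 CPM, AKR1B1 by 1.02 and OSGIN1 by 0.85. FTH1, the iron store, was the most abundant of them, at 4267, 4708 and 4534 CPM in Vehicle and 6571, 7188 and 7848 CPM in Combo (log2 0.68).

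Secreted inflammatory signals had the highest list medians. Of 13 tested chemokines 11 rose and 0 fell (median 1.32), and of 20 cytokines and colony-stimulating factors 15 rose and 0 fell (median 1.17). CXCL3 went from 5.87, 6.53 and 6.88 CPM to 30.4, 20.6 and 46.6 CPM and CXCL2 from 5.87, 3.98 and 6.94 CPM to 22.9, 15.1 and 33.6 CPM. These neutrophil attractants are near copies of each other, so reads could be split between them. CCL20, which draws lymphocytes and dendritic cells, had 6, 8 and 5 counts in Vehicle and 80, 43 and 87 counts in Combo. IL1A, an alarm cytokine, stood at 1.01, 1.14 and 1.797 CPM and then at 6.54, 4.21 and 7.01 CPM. CSF3, the growth factor of neutrophils, had at most 2 counts in a Vehicle library and 15, 15 and 30 in Combo, and EBI3, a cytokine subunit, had 3 to 5 and then 20 to 43 counts. Combo replicate 2 was the lowest of its group for 10 of the 13 chemokines and 10 of the 20 cytokines. Without it 10 chemokines and 14 cytokines rose.

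NF-kappaB is a family of transcription factors that inflammatory signals release from inhibitors, and it induces those inhibitors again as feedback. Of 17 tested subunits and feedback genes 16 rose and 0 fell (median 0.88). TNFAIP3, a feedback inhibitor, went from 78.4, 74.9 and 74.4 CPM to 270, 138 and 286 CPM (log2 1.61), and RELB, a subunit, from 19.0, 21.9 and 17.0 CPM to 43.9, 37.5 and 43.3 CPM (log2 1.11, edgeR adjusted p = 1.85e-05). BIRC3, an inhibitor of apoptosis, rose by 1.19 and TRAF1 from 6.30, 4.97 and 5.21 CPM to 30.6, 15.7 and 30.6 CPM. Combo replicate 2 was again lowest of its group in 14 of the 17 genes.

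Immediate-early genes are transcribed within minutes of a growth or stress signal, and most of those tested rose. Of 24 tested members, AP-1 factors included, 19 rose and 1 fell (median 1.04), and Combo replicate 2 was the lowest Combo library for 20 of them. Without it 21 rose. The fall was lost without Vehicle replicate 2 or Combo replicate 3. EGR1 stood at 3.19, 1.42 and 1.61 CPM in Vehicle and at 12.8, 4.93 and 19.2 CPM in Combo (log2 2.58, SE 0.45, edgeR adjusted p = 0.000977). JUNB went from 80.8, 75.9 and 72.7 CPM to 165, 157 and 207 CPM (log2 1.21, edgeR adjusted p = 8.79e-06), and FOS and FOSB rose by 1.76 and 1.71. Phosphatases that shut MAP kinases off rose in part, with 5 of 16 feedback genes rising and 1, ETV4 (log2 −0.42), falling (2 with the replicate block and without Combo replicate 1 or 2). DUSP1 went from 23.6, 20.1 and 19.0 CPM to 70.6, 43.1 and 93.9 CPM, and DUSP10, DUSP5 and the ERK inhibitor SPRY4 rose by 1.14, 0.67 and 0.60. Of 14 EGF receptor ligands and receptors 3 rose and 0 fell, led by the ligand HBEGF (39.7, 35.6 and 30.6 CPM to 96.4, 59.4 and 87.7 CPM) and the receptor inhibitor ERRFI1 (log2 0.87). Without Combo replicate 2, 1 fell.

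**Figure D3:**
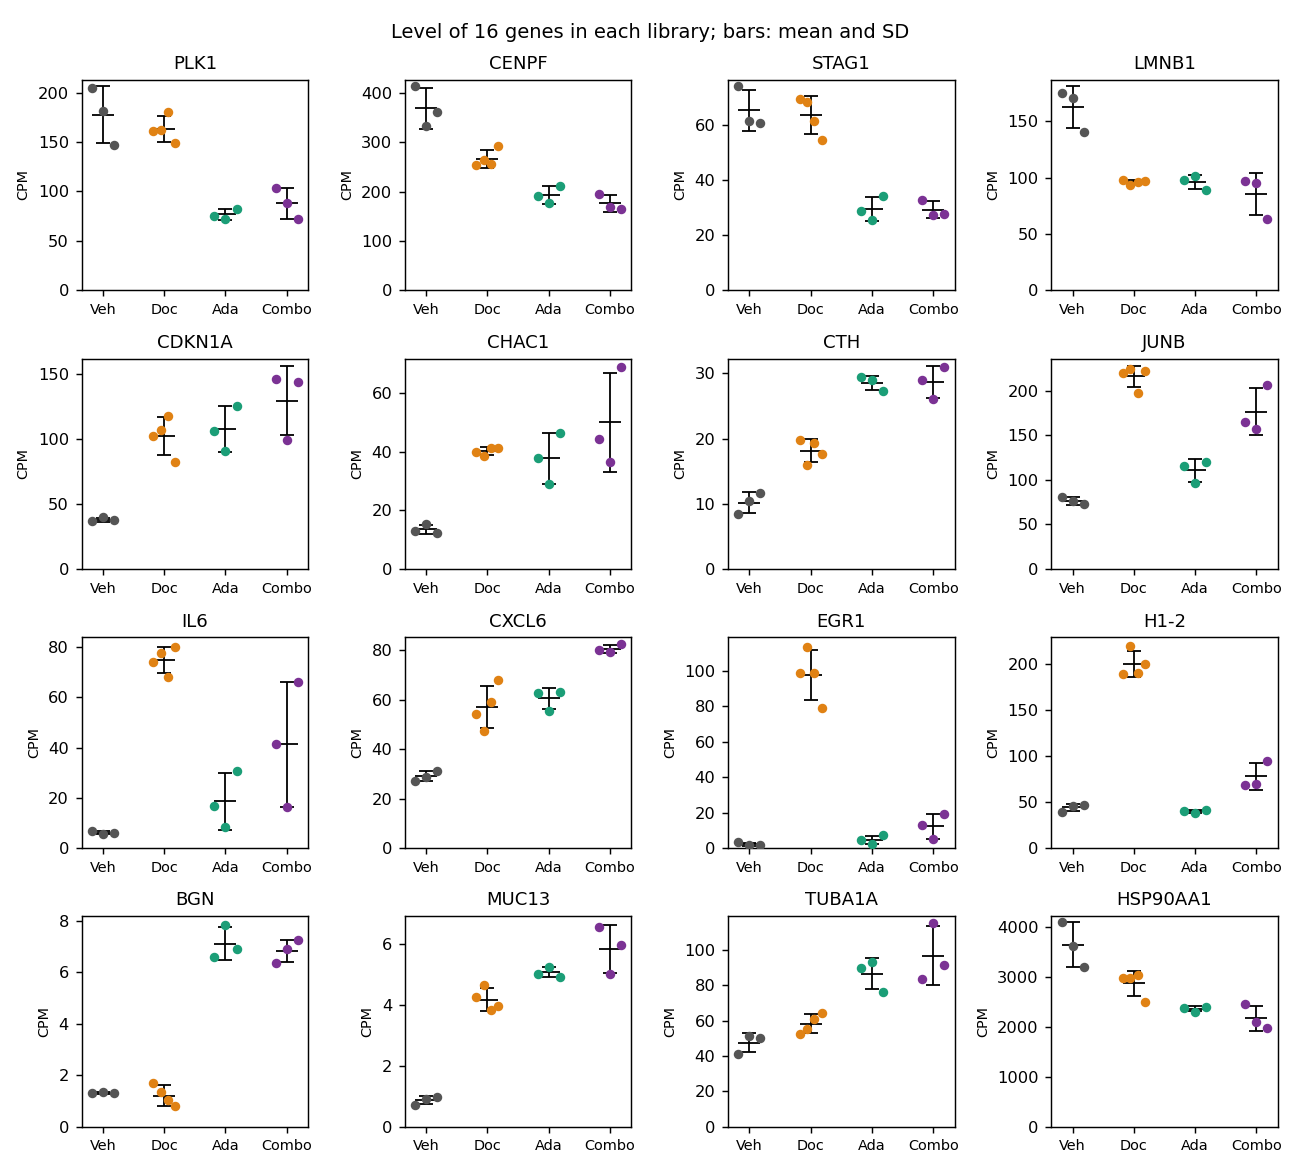
Level of 16 genes in every library (CPM, linear axes from 0), 1 point per library, with the mean and SD of the 3 Vehicle, 4 Docetaxel, 3 Adapalene and 3 Combo libraries. PLK1, CENPF and STAG1 are lower in Combo than in Vehicle, CXCL6 is at 79.4 to 82.4 CPM in Combo against 27.2 to 31.2 CPM in Vehicle, and EGR1 and H1-2 are highest in Docetaxel.

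Interferon-stimulated genes, which cells use against viruses, rose in part. Of 42 tested 16 rose and 0 fell (median 0.59), with the replicate number as a block 26 of 41 rose, and without the 4 libraries of high mitochondrial share 31 rose. Combo replicate 3 was the lowest of its group for 25 of the 42 genes and replicate 2 for 4. The median was 0.32 without Combo replicate 2. RSAD2, an antiviral enzyme, went from 7.46, 7.60 and 12.1 CPM to 23.4, 24.5 and 33.6 CPM (log2 1.57) and IFIT2 from 90.0, 91.4 and 107 CPM to 214, 197 and 242 CPM (log2 1.18, edgeR adjusted p = 8.79e-06). The transcription factor IRF1 rose by 1.29, and SAMD9 and OASL, both antiviral, by 1.07 and 1.05. Against Docetaxel the picture turned: 20 of the 42 were lower in Combo and 0 higher (median −0.49), beside 11.2% of all tested genes lower in that comparison, 12.8% higher and 24.0% called in either direction. SAMD9 averaged 178 CPM in Docetaxel and 114 to 125 CPM in Combo (log2 −0.56).

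Replication histones showed the same position between Vehicle and Docetaxel. These genes make the bulk histones of newly copied DNA, and most of their transcripts lack the poly(A) tail by which the libraries were selected. Of 20 tested 13 rose against Vehicle and 0 fell (median 0.75), with 7 rising without Combo replicate 3, and 17 were lower than in Docetaxel (median −1.18). H1-2, a linker histone named after its values were seen, stood at 39.5, 45.7 and 47.0 CPM in Vehicle, 68.7, 70.1 and 94.6 CPM in Combo and 189 to 220 CPM in Docetaxel. H2BC8 went from 3.55, 3.55 and 4.46 CPM to 12.7, 7.98 and 18.6 CPM and averaged 31.8 CPM in Docetaxel. H1-4, H2AC8 and H1-3 rose against Vehicle by 2.07, 1.61 and 1.59 from under 4 CPM. Histone genes are near-identical copies, and a single gene's value is uncertain.

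Of 33 collagens and matrix glycoproteins 11 rose and 2 fell (median 0.04), beside 13.5% of all tested genes rising and 12.3% falling. The falls moved with single libraries. They numbered 0 without Combo replicate 3, 1 without Vehicle replicate 2 or 3, and 7 without Combo replicate 2. They were 6 without Adapalene replicate 2 or replicate 3. With the replicate block 9 fell, and with a block over all 13 libraries 4 fell. BGN, the proteoglycan biglycan (chromosome X, 153494939 to 153509554), went from 1.30, 1.35 and 1.30 CPM to 6.35, 6.89 and 7.24 CPM (log2 2.36, SE 0.22, edgeR adjusted p = 1.26e-05). COL17A1, a collagen of epithelial attachment, rose by 0.99, COL16A1 by 0.98 and COL5A1 by 0.79. The groups did not overlap in these genes, and every Combo value was the higher in 3241 of all 15734 tested genes. Among 15 integrins 4 rose and 1 fell: ITGB3 went from 8.04, 8.31 and 10.5 CPM to 22.9, 23.8 and 26.7 CPM, ITGA1 and ITGA5 rose by 1.42 and 0.60, and ITGA6, which binds laminin, fell by 0.47.

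TIMP1, the target of the hairpin, was detected in all libraries and rose in Combo from 60.6 ± 5.11 CPM to 106 ± 7.03 CPM (log2 0.81, SE 0.13, edgeR adjusted p = 0.000418). Of 21 TIMPs, metalloproteinases and partners 8 rose and 2 fell. Rises were 5 without Vehicle replicate 2 or without Combo replicate 1, and 1 fell without Combo replicate 3. The tetraspanin CD82 rose by 0.82 and the metalloproteinase MMP24 by 0.77, and the sheddase ADAM9 fell by 0.33. Of 13 plasminogen activators and serpins 4 rose and 0 fell, and 2 rose without Vehicle replicate 3 or without Combo replicate 1. PLAT, the tissue activator, went from 596, 700 and 615 CPM to 941, 830 and 830 CPM, and SERPINE2 from 67.5, 66.9 and 73.4 CPM to 119, 116 and 114 CPM.

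Epithelial and mesenchymal genes gave no single direction. Their counts stand beside 13.5% of all tested genes rising and 12.3% falling. Of 30 junction and keratin genes 6 rose and 3 fell, 9 fell with the replicate block, 7 without Adapalene replicate 3 and 5 without Docetaxel replicate 3. Besides MUC13 and KRT17, the tight junction gene CLDN1 rose (log2 0.64) and so did the transcription factor OVOL1 (0.86). EPCAM fell from 267, 260 and 264 CPM to 188, 196 and 164 CPM, and GRHL2, a factor of epithelial identity, from 68.6, 70.8 and 68.7 CPM to 48.3, 52.4 and 37.97 CPM. Of 17 mesenchymal genes 4 rose and 1 fell (7 and 4 with the replicate block), and 2 fell without Vehicle replicate 1, Combo replicate 1 or Combo replicate 2. ZEB2, SNAI1 and TWIST1, repressors of epithelial genes, rose by 1.85, 1.26 and 0.53, ZEB2 from 3.12, 2.41 and 2.29 CPM to 10.0, 5.88 and 12.2 CPM. AXL, a receptor kinase, fell by 0.48.

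Of 27 TGF-beta pathway genes 7 rose and 6 fell. The counts of this paragraph stand beside 13.5% of all tested genes rising and 12.3% falling, and those of the YAP and IGF lists were near these shares. The inhibitor SMAD7 rose by 1.82 from 1.16, 0.568 and 1.18 CPM and the ligand TGFB3 by 0.69, while SMAD6 fell by 0.85, the activin subunit INHBB by 0.62 and the common SMAD4 by 0.49. Of 20 YAP targets 3 rose and 2 fell (5 and 5 with the replicate block), and 5 rose without Adapalene replicate 2, Adapalene replicate 3 or Combo replicate 2, while 1 fell without Vehicle replicate 1 or 2. The kinases NUAK2 and LATS2 rose by 1.03 and 0.46. Of 27 Wnt and Notch genes 5 rose and 0 fell, with the Notch ligand DLL4 at 1.01, 0.781 and 1.11 CPM and then 3.05, 3.26 and 3.51 CPM, HES4 up by 1.12 and HES1 by 0.58. Of 14 IGF and insulin genes 2 rose and 1 fell, and 1 rose without Vehicle replicate 1 or Combo replicate 3. IGFBP6 rose by 0.41 and IGFBP5 fell from 74.3, 70.2 and 65.7 CPM to 46.3, 49.98 and 42.8 CPM.

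The retinoic acid receptor genes were not called. Of 19 tested retinoid receptor and metabolism genes 2 rose and 1 fell, beside 13.5% of all tested genes rising and 12.3% falling. With the replicate block 4 fell, and 0 fell when any of Vehicle replicates 1 and 3 and Combo replicates 1 and 3 was left out. RBP4, the retinol carrier, went from 2.61, 2.91 and 2.66 CPM to 6.35, 7.25 and 7.31 CPM (log2 1.35) and the dehydrogenase DHRS9 from 13.3, 11.5 and 11.8 CPM to 27.1, 20.6 and 24.5 CPM. RARA and RARG, the abundant receptors here, were not called, with log2 values of −0.02 (SE 0.08) and −0.05 (SE 0.12). RARB, a receptor gene that retinoids are known to induce, was at 2.83, 3.34 and 2.35 CPM in Vehicle and 2.18, 0.871 and 2.24 CPM in Combo (log2 −0.67, SE 0.32, edgeR adjusted p = 0.131). CYP26A1, the retinoid-degrading enzyme, had too few counts to be tested. Of 31 HOX genes and cofactors 6 rose and 3 fell, beside the same shares of all genes. HOXB2 rose by 1.09 and MEIS2 fell by 0.53. Rises numbered 3 without Vehicle replicate 2 or 3 and 2 without Combo replicate 3, and falls 5 without Combo replicate 2 and 1 without Vehicle replicate 2, Vehicle replicate 3 or Combo replicate 1.

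Of 30 tubulins, microtubule-associated proteins and stathmins 7 rose and 3 fell, beside 13.5% and 12.3% of all tested genes. TUBA1A stood at 41.3, 51.4 and 50.1 CPM in Vehicle and 83.5, 115 and 91.4 CPM in Combo (log2 1.02, edgeR adjusted p = 7.24e-05), and TUBB4A at 65.3, 76.0 and 59.0 CPM and then at 110, 117 and 108 CPM (log2 0.74). TUBB2A and TUBB2B rose by 0.99 and 1.32, and tubulin genes are close copies whose single values are uncertain. The microtubule proteins MAP7 and CLASP2 and the folding factor TBCA fell by 0.50, 0.42 and 0.34. TUBB lies in the region of chromosome 6 with few counts and stayed under 2 CPM in all libraries. Of 19 ABC transporters and drug metabolism genes 2 rose and 1 fell, below the shares of all genes, and 6 rose with the replicate block. CYP1B1, a cytochrome that oxidises hormones, went from 77.9, 65.2 and 69.0 CPM to 136, 116 and 173 CPM, CYP1A1 rose by 1.34 and the efflux pump ABCC4 fell by 0.40. The taxane pump ABCB1 had too few counts to be tested.

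Genes of cell death leaned upward. Of 18 BCL2 family genes 8 rose and 0 fell (median 0.36). BMF, which promotes apoptosis, went from 5.00, 4.05 and 4.65 CPM to 11.96, 14.3 and 16.2 CPM (log2 1.63, edgeR adjusted p = 2.8e-05), and PMAIP1 and BIK, of the same kind, rose by 0.86 and 0.84. BCL2A1, which opposes apoptosis, rose as well, by 0.63 (edgeR adjusted p = 0.0236). Its call was lost without Vehicle replicate 1, Vehicle replicate 2 or Combo replicate 3. Of 24 death receptor and caspase genes 9 rose and 2 fell, with 5 rising without Combo replicate 3 and 1 falling without any of Vehicle replicates 1 and 2 and Combo replicates 2 and 3. CASP1, CASP10 and CASP4 rose by 1.03, 1.01 and 0.67. FADD, an adaptor of death receptors, fell by 0.29 and was not called in any of the last 4 of these fits. BIRC5, an inhibitor of apoptosis that also works in mitosis, fell from 347, 348 and 303 CPM to 222, 227 and 188 CPM.

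Surface molecules read by immune cells rose in part. Of 17 ligands of natural killer cells and adhesion genes 7 rose and 0 fell (median 0.34). The adhesion molecule ICAM1 went from 81.1, 69.7 and 67.4 CPM to 162, 125 and 190 CPM, and CD70, a ligand of the TNF family, from 10.7, 11.5 and 9.54 CPM to 22.1, 22.1 and 24.0 CPM (log2 1.10). ULBP2 and RAET1L, ligands of the receptor NKG2D with close relatives, rose by 0.81 and 1.65. Of 18 checkpoint ligands and antigen processing genes 6 rose and 0 fell, and 3 rose without Vehicle replicate 2. LGALS3, a galectin, rose by 0.56. CD274, known as PD-L1, rose by 0.71 (edgeR adjusted p = 0.0119) but missed the threshold without Combo replicate 1 (adjusted p = 0.0636).

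The counts of this paragraph stand beside 13.5% of all tested genes rising and 12.3% falling. Of 32 genes of glycolysis and the hypoxia response 10 rose and 1 fell. In this list 6 rose without Vehicle replicate 1, 0 fell without Combo replicate 3 and 2 fell without Vehicle replicate 3. The peptide hormone ADM went from 26.7, 19.0 and 18.6 CPM to 79.3, 41.8 and 106 CPM, and the enzymes ALDOC and ENO2 rose by 0.82 and 0.55. Of 24 cholesterol synthesis genes 1 rose and 0 fell (median −0.06), and 2 rose and 5 fell with the replicate block. The rise was lost when any of Vehicle replicates 1 and 2 and Combo replicates 2 and 3 was left out, and 1 fell without Vehicle replicate 3 or Combo replicate 1. Of 20 genes of fatty acid synthesis 7 fell and 0 rose (median −0.23), with 11 falls in the blocked fit. In this list falls dropped to 1 without Vehicle replicate 1, Vehicle replicate 2 or Combo replicate 3, to 3 without Combo replicate 1 and to 4 without Vehicle replicate 3. The elongase ELOVL6 fell by 0.40, from 43.2, 39.98 and 43.1 CPM to 31.9, 35.3 and 28.3 CPM. Of 37 nuclear genes of oxidative phosphorylation 2 rose and 7 fell (median −0.11), among the latter UQCRFS1 (log2 −0.43), ATP5F1C (−0.41), ATP5PB (−0.36) and ATP5MC3 (−0.35). The rises, NDUFV2 and NDUFA2, were both lost when Vehicle replicate 1, Vehicle replicate 2 or Combo replicate 3 was left out, and the call of NDUFA2 was lost when almost any library was. None of the 13 mitochondrially encoded genes was called, and 2 fell with the replicate block. MT-ND4, the most abundant, ran from 2797 to 7233 CPM in Vehicle and from 2434 to 5897 CPM in Combo (edgeR adjusted p = 0.713, 0.01745 with the replicate block and 0.0335 with no filter).

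Over all tested genes 13.5% rose and 12.3% fell, and the lysosome counts were near these shares. Of 27 lysosome and autophagy genes 5 rose and 3 fell, and 10 rose with the replicate block. In that list 3 rose without Vehicle replicate 3 or Combo replicate 3, and 1 fell without Vehicle replicate 1. The autophagy proteins GABARAPL1 and MAP1LC3B went from 13.6, 13.8 and 13.1 CPM to 33.1, 26.0 and 43.7 CPM and from 90.4, 92.2 and 96.5 CPM to 148, 125 and 173 CPM. CTSC, a protease, fell by 0.57. Of 14 genes of the potassium channel list 4 rose and 2 fell. KCNK9 went from 7, 10 and 8 counts to 38, 52 and 26 counts, and KCNG1 (log2 0.62), KCNK6 (0.59) and KCNK1 (0.33) rose too. The channel gene KCNJ11 fell by 0.96. KCTD12, which is on the list but is not itself a channel, was lower by 0.51. Without Vehicle replicate 3, Combo replicate 1 or Combo replicate 3, KCNJ11 was not called and 1 gene of that list fell. Of 34 semaphorin, plexin and ephrin genes 8 rose and 3 fell, and 5 rose without Vehicle replicate 1, Vehicle replicate 2 or Combo replicate 1, while 1 fell without Combo replicate 3. SEMA6A, SEMA3B and EFNA1, guidance cues, rose by 1.33, 0.82 and 0.65 and SEMA3D fell by 0.76.

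Combo differed from Docetaxel in 3783 genes (24.0% of those tested), 2014 higher and 1769 lower in Combo. Without Combo replicate 2 these counts were 1268 and 1024. Of the mitotic lists, 20 of 25 kinesin and spindle genes were lower than in Docetaxel and 0 higher (median −0.40), and 15 of 29 checkpoint and cohesion genes were lower and 0 higher (median −0.26). Of 18 mitotic entry genes 8 were lower and 1 higher (median −0.11), and of 25 kinetochore and centromere genes 6 were lower and 2 higher (median −0.06). STAG1 averaged 63.4 ± 6.86 CPM in Docetaxel (SD, n = 4) and 29.2 ± 3.07 CPM in Combo (SD, n = 3), a log2 difference of −1.12 (edgeR adjusted p = 2.77e-05). Ribosome biogenesis genes were lower in 11 of 25, and 7 of 17 heat shock genes were. Higher in Combo were 19 of 33 ATF4 targets, 11 of 40 replication genes, 9 of 24 cholesterol genes and 12 of 33 matrix genes. BGN averaged 1.22 ± 0.397 CPM in Docetaxel and 6.83 ± 0.445 CPM in Combo (log2 2.49). EGR1 stood at 97.6 ± 14.1 CPM in Docetaxel and 12.3 ± 7.13 CPM in Combo (log2 −2.99, edgeR adjusted p = 3.5e-05).

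Combo and Adapalene were told apart by 6 genes (0.0381% of those tested), all 6 higher in Combo. At an unadjusted p under 0.05, 509 genes were higher and 284 lower. Without any difference, a share of 0.05 of the 15734 tested genes would be expected there. Together the counts are close to that share, so they are not read as further differences. DESeq2 called 38 higher and 1 lower. The 6 genes, named here after their values were seen, are the histone genes H1-10, H1-2, H2BC4 and H2BC12, the AP-1 factor JUNB and the kinase PIM3. H1-2 stood at 40.6, 37.99 and 41.1 CPM in Adapalene and 68.7, 70.1 and 94.6 CPM in Combo (log2 0.96, SE 0.11, edgeR adjusted p = 0.00539). JUNB stood at 115, 96.2 and 120 CPM and then at 165, 157 and 207 CPM (log2 0.67, edgeR adjusted p = 0.0341), and PIM3 at 37.1, 31.1 and 37.5 CPM and then at 49.95, 51.6 and 62.7 CPM. H1-10 was lower in Adapalene than in any Vehicle library, at 71.7 to 75.3 CPM, and its Combo values of 96.8, 108 and 120 CPM overlapped those of Vehicle. Leaving out 1 library in turn gave 0 to 33 such genes, 0 without Adapalene replicate 1 and 33 without Combo replicate 2. No gene of at least 5 CPM was called in the same direction against all 3 other groups.

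The 3 drug groups were measured against the same 3 Vehicle libraries, so their list medians are given side by side without a test. The kinesin and spindle list had a median log2 of −0.20 in Docetaxel, −0.54 in Adapalene and −0.59 in Combo, and the ATF4 list 0.07, 0.53 and 0.52. The NF-kappaB list had 1.06, 0.48 and 0.88, the chemokines 1.45, 0.54 and 1.32, and the replication histones 2.17, 0.09 and 0.75. Ribosome biogenesis stood at 0.10, −0.31 and −0.26. For single genes, the change in Combo departed from the sum of the changes in the single drugs, on the log2 scale, in 227 genes (1.44% of those tested), above it in 33 and below it in 194. These counts were 3 and 56 without Vehicle replicate 2 and 152 and 371 without Combo replicate 3. In the kinesin and ATF4 lists the Combo median lay next to that of Adapalene, and in the chemokine and NF-kappaB lists nearer to that of Docetaxel.

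**Figure D4:**
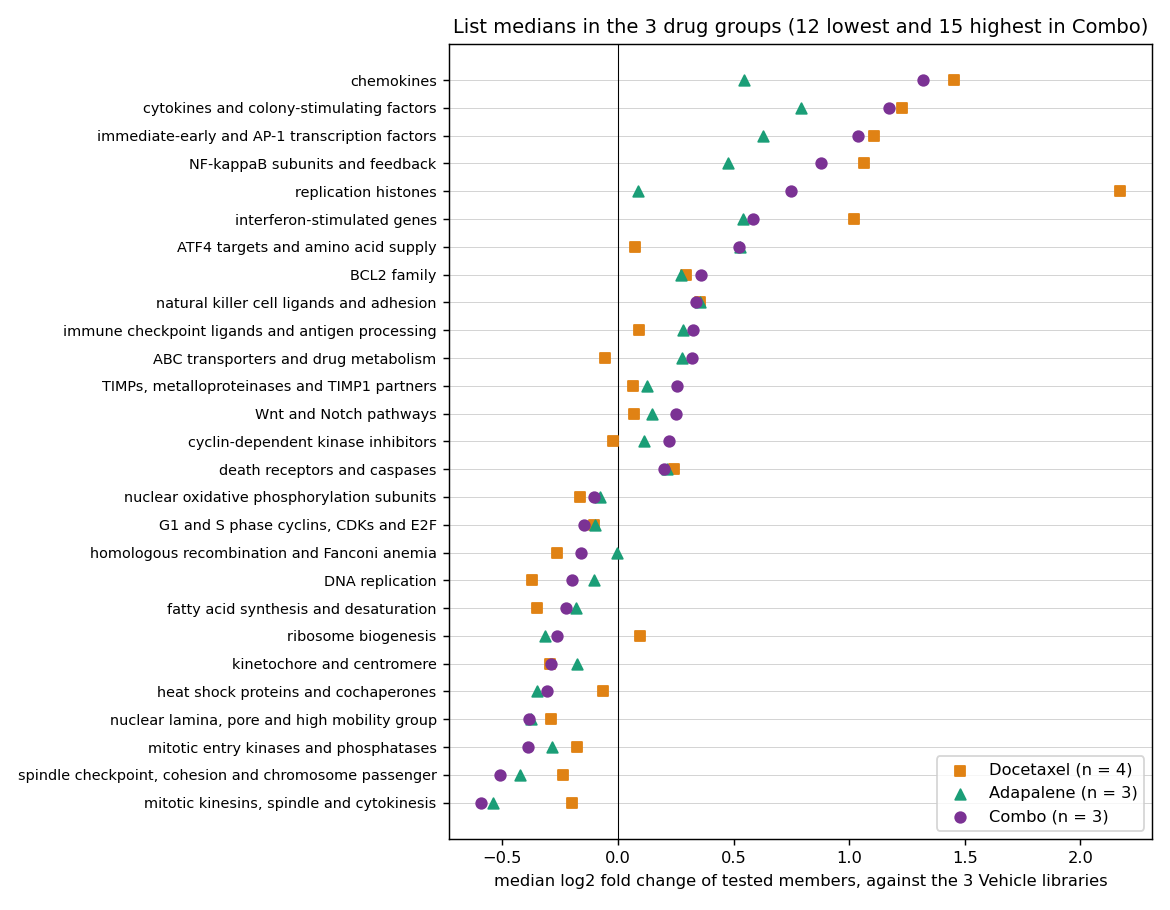
Median log2 fold change of the tested members of 27 gene lists in Docetaxel (squares, 4 libraries), Adapalene (triangles, 3) and Combo (circles, 3), each against the same 3 Vehicle libraries. For kinesin and spindle genes Combo stands at −0.59 beside Adapalene at −0.54, and for replication histones it stands at 0.75 between Adapalene at 0.09 and Docetaxel at 2.17.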

How the data were processed

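Polyadenylated RNA of PC3 cells was sequenced as stranded single reads, per the labels' protocols. The deposited table holds raw counts per Ensembl gene as the authors made them. STAR 2.7.10a, FastQC, DESeq2 and the build GRCh38.p13 are listed in the submitters' processing notes. How reads were assigned to genes, by strand or when shared between copies, is not stated there or in the labels, so antisense partners and near-identical copies are uncertain.

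The test was edgeR 4.0.16 under R 4.3.3: filterByExpr by group (minimum count 10, minimum total 15), TMM, and 1 quasi-likelihood fit of 4 group means to all 13 libraries, adjusted by Benjamini-Hochberg over 15734 genes. DESeq2 1.42.0, other scaling and filters, the replicate block and leaving out each library were alternatives. Same-numbered Vehicle and Combo libraries deviated together (r of 0.257, 0.159 and 0.174 across genes, unlike numbers −0.291 to 0.0639), which the labels do not explain. The printed calls come from the fit without the block. Blocked counts are from a fit to the 6 Combo and Vehicle libraries alone (2592 rises and 2507 falls) and are given where they differ. They therefore differ from the printed calls in the libraries used as well as in the block. Those 6 libraries without the block gave 1661 rises and 1445 falls. A block over all 13 libraries gave 2063 rises and 1970 falls. Replicate pairs within Combo and within Vehicle differed by more than sampling noise (chi-square per degree of freedom 4.88 to 19.7).

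Coordinates are from GENCODE release 29. Members and gene lists were chosen with earlier results of these data known. Genes are named by rule. The 12 largest called rises and falls had at least 5 CPM in the higher group and no overlap between Combo and Vehicle libraries. The others are the 8 smallest p-values each way, up to 4 called members of each list and direction, the largest interactions and 9 set genes. Of the 272 genes so picked, those whose call was lost under an alternative are mostly left out of the text. Some results are not reported here.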

Additional observations from a re-analysis of the deposited data

Results flagged for a closer look

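An interaction tests whether the log2 change in Combo departs from the sum of the changes in Docetaxel and in Adapalene. It was called for 227 of 15734 genes (1.44%), above that sum in 33 and below it in 194. Below the sum the largest were EGR1, whose Combo change fell short by an interaction of −4.14 (SE 0.61, edgeR adjusted p = 0.00399), and the cytokine IL24 (−3.35). IL24 averaged 5.11 CPM in Vehicle, 95.2 in Docetaxel, 10.6 in Adapalene and 19.5 in Combo. ARC had −2.53 and IL6 −2.48, and the others were the pseudogene IMPDH1P10 (−2.82), the transporter ABCA10 (−2.69), the noncoding LYPLAL1-DT (−2.41) and the muscle gene XIRP2 (−2.36). In these 8 genes the Docetaxel group had the highest mean of the 4 groups. The interaction was tested in 20 alternatives, and EGR1, IL24, ARC and ABCA10 were called in all 20. IL6 was not called in 10 of them, XIRP2 in 7, IMPDH1P10 in 5 and LYPLAL1-DT in 1, with the highest adjusted p in each case without Vehicle replicate 2 (IL6 0.143, XIRP2 0.105, IMPDH1P10 0.11, LYPLAL1-DT 0.0597).

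Above the sum were genes that stood lowest in Docetaxel. NUP210, a nuclear pore glycoprotein, had an interaction of 0.90 (edgeR adjusted p = 0.00701), with 257 CPM in Vehicle, 133 in Docetaxel, 226 in Adapalene and 217 in Combo. IGFBP5 had 0.79 (edgeR adjusted p = 0.0109), the proteoglycan GPC1 0.73 and CTXN1 0.93. The antisense genes LOXL1-AS1 and TMPO-AS1 had 1.14 and 0.77. FADS2 and FASN, enzymes of fatty acid synthesis, had 0.81 and 0.75. FASN was 850 CPM in Vehicle, 579 in Docetaxel, 587 in Adapalene and 670 in Combo, so both single drugs lay below Combo. NUP210 and IGFBP5 were called in all 20 alternatives. GPC1 was not called in 3, CTXN1 in 8, FASN in 10, FADS2 and TMPO-AS1 in 13 and LOXL1-AS1 in 14, again with the highest adjusted p without Vehicle replicate 2 (0.0723 for GPC1, 0.0983 for CTXN1, 0.125 for FASN, 0.136 for FADS2 and LOXL1-AS1, 0.126 for TMPO-AS1). Antisense genes are uncertain, as the counting may not have used strand.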

How the results depend on the processing

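Rises and falls in Combo against Vehicle stayed within 1.5 times their main counts in all settings without a left-out library. With the replicate block, Combo and Vehicle alone gave 2592 rises and 2507 falls, and a block over all libraries gave 2063 and 1970. Leaving out 1 library gave 1319 to 2393 rises and 1167 to 2226 falls, 466 to 853 and 41 to 96 of them at 2-fold or more, and 72 falls of that size came without a filter. Against Docetaxel 1268 to 2288 genes were higher and 1024 to 2077 lower. Against Adapalene 0 to 33 were higher. The replicate block over all libraries gave 2, no filter 106 higher and 22 lower, and DESeq2 38 and 1. Interactions above the sum ran from 3 to 152 and below it from 56 to 371, both lowest without Vehicle replicate 2 and highest without Combo replicate 3. They numbered 356 and 590 with no filter, 274 and 359 without the 4 libraries of high mitochondrial share, and 112 and 373 with DESeq2. The cause of these changes was not tested. The 272 named genes include some that were not called in the main fit. Of the 272, 202 stayed called or stayed not called in every alternative, of 22, that tested them. A call was lost in at least 1 alternative by 65, 5 gained one and 0 reversed. Precision is limited by 3 technical replicates a group.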
